A study of Homo sapiens with 6 samples.

Results

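The Krüppel-like factors (KLFs) and GLIS3 are zinc finger transcription factors, and 10 of their genes, namely KLF3, KLF4, KLF5, KLF6, KLF7, KLF9, KLF10, KLF12, KLF13 and GLIS3, are described here out of 18404 genes measured. The tested samples were CD133+ cells of HCT116, a widely used cell line from a human colorectal carcinoma, and the comparison samples were CD133- cells of the same line, with 3 arrays each, numbered as repetitions 1, 2 and 3. Both fractions came from this 1 line, sorted for CD133, a surface glycoprotein encoded by PROM1 that has been used to enrich tumour-initiating cells. Nothing in the labels says that the repetitions were separate cultures or sorts, so the p-values below measure only the spread between these arrays, which may be technical. Each gene was represented by the probe set that carried its symbol alone and had the highest mean over the 6 arrays. The genes were selected on their family and on differences between CD133+ and CD133- cells seen in these arrays, chiefly those of GLIS3 and KLF12. For these 10 genes every value of that difference below is therefore a description, and no p-value is given for it. Calls among them by a linear model are counted below, but nothing is read from those counts.

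KLF proteins share a DNA-binding region of 3 zinc fingers near the carboxyl end and bind GC-rich and CACCC sequences in promoters and enhancers, while the rest of the protein recruits activators or repressors. In the intestine KLF5 is known from dividing crypt cells and KLF4 from differentiated cells nearer the gut lumen. GLIS3 is a relative of the GLI factors of Hedgehog signalling and is best known for its part in pancreatic beta cells, thyroid and kidney.

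PROM1 was higher on every CD133+ array than on any CD133- array, with a mean log2 signal of 7.35 in CD133+ cells and 4.57 in CD133- cells. Array medians lay between 5.44 and 5.60. The 11 colorectal epithelial markers, EPCAM and KRT8 among them, had a mean log2 signal of 8.21 to 8.37 on CD133+ arrays and 8.001 to 8.36 on CD133- arrays. Of this list CDH17 (3.16 over 6 arrays), VIL1 (4.53) and LGALS4 (5.40) lay below 5.53, the median of all probe set means, and the others above it. Markers of leukocytes (9 genes) averaged 4.35 to 4.50 in CD133+ and 4.33 to 4.59 in CD133- cells, those of fibroblasts (10 genes) 4.16 to 4.28 and 4.15 to 4.39, and those of endothelium (8 genes) 4.44 to 4.51 and 4.47 to 4.54. PTPRC, which defines leukocytes, averaged 2.44 in CD133+ and 2.33 in CD133- cells and was higher on every CD133+ array than on any CD133- array. TYROBP (6.80 over 6 arrays), NKG7 (6.27), COL1A1 (7.47) and CLDN5 (6.14) lay above the median of all probe set means. The other leukocyte, fibroblast and endothelial markers lay below it. The mean signals of each of these lists overlapped between the fractions. Single epithelial markers did not all overlap and went both ways, with KRT18 at -0.48 and KRT8 at -0.24 lower and CLDN7 at 0.48 higher on every CD133+ array than on any CD133- array. These 3 were named after their values were seen, none passed in limma (adjusted p = 0.767 for KRT18, and 0.0989 with the repetition block), and their part in the differences below was not tested. A whole-population array cannot tell fewer expressing cells from less RNA per cell, and this holds for every difference below.

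GLIS3 and KLF12 stood lower in CD133+ cells by more than 1 log2 unit, and the other 8 genes differed by 0.25 or less. Of all 18404 genes, 0.228% had an absolute difference above 1. Ranked from the most negative difference, GLIS3 was gene 7 and KLF12 gene 16. Among the 10 genes 5 lay below 0 and 5 above 0, with a median of -0.03, against 52.1% of all genes below 0 and a median of -0.0064.

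GLIS3, which activates insulin gene transcription in beta cells, had log2 signals of 5.65, 5.68 and 5.77 on the CD133+ arrays of repetitions 1, 2 and 3, and 6.98, 6.76 and 7.58 on the CD133- arrays. All CD133+ values lay within a narrow band, little above 5.53, the median of all probe set means. The lowest CD133- value was 0.98 above the highest CD133+ value. Whether the low signal narrowed that band was not tested. The means were 5.70 ± 0.064 in CD133+ and 7.11 ± 0.43 in CD133- cells (SD, n = 3 each). Within repetitions 1, 2 and 3 the difference was -1.32, -1.08 and -1.81 log2 units, with a mean of -1.40 ± 0.37 (SD of 3 differences), or a 2.65-fold lower signal in CD133+ cells. The variation in size came from the CD133- arrays, whose highest value, in repetition 3, set the largest difference.

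KLF12, a repressor first described at the promoter of the AP-2alpha gene TFAP2A, had log2 signals of 5.48, 4.90 and 5.66 on the CD133+ arrays and 6.44, 6.13 and 6.65 on the CD133- arrays. The fractions did not overlap, with a gap of 0.47 between the highest CD133+ and the lowest CD133- value. KLF12 averaged 5.34 ± 0.40 in CD133+ and 6.40 ± 0.26 in CD133- cells (SD, n = 3 each). The difference within repetitions 1, 2 and 3 was -0.96, -1.24 and -0.99, with a mean of -1.06 ± 0.15, which is a 2.09-fold lower signal in CD133+ cells. In CD133+ cells 2 of the 3 arrays lay below 5.53, the median of all probe set means. Unlike GLIS3, KLF12 varied between repetitions in both fractions alike, being lowest in repetition 2.

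Sequence upstream of the annotated starts of these genes is shown for KLF12 and GLIS3, because they were the only members with an absolute difference above 1. RefSeq windows of 250 bases before a start (GRCh38.p14) were matched by symbol for 8 of the 10 genes, in 16 windows, while KLF3 and KLF10 were not matched. KLF12 has several annotated starts, and the 2 windows with the most CACCC cores are printed, on the minus strand at chr13:74133930-74134179 and chr13:74134405-74134654. Of the GLIS3 windows, the one farther upstream is shown, on the minus strand at chr9:4298497-4298746. Capitals mark CACCC or its reverse complement GGGTG, 5′ to 3′ along the gene.
KLF12 first window: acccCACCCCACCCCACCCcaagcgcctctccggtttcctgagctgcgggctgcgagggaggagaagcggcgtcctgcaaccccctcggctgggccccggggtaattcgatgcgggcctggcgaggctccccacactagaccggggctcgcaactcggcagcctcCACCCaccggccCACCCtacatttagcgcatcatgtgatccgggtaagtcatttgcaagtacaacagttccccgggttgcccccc
KLF12 second window: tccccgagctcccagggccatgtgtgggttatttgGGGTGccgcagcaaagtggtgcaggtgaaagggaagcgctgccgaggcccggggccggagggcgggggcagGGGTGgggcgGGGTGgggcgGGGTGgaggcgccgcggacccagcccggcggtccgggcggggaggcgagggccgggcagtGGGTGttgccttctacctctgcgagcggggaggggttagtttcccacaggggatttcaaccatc
GLIS3 window: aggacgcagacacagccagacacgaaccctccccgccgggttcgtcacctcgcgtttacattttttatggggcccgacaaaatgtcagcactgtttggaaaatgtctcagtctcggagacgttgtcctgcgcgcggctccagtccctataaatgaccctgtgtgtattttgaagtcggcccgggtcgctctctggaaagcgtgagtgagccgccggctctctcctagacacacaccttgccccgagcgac

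Each printed KLF12 window holds 5 CACCC cores on either strand, a number reached by 1.03% of the 35116 RefSeq windows of that length. In the first window 3 of them follow each other in a CCCCA repeat at its far end. Both windows were printed for having the most cores, so that share does not measure how unusual they are. The other KLF12 windows hold 0 cores. At least 1 core occurs in 54.7% of all windows and in 7 of the 16 windows of these genes, namely in KLF12, KLF5, KLF7 and KLF13. This core was chosen for the search after the windows had been seen. The longer KLF element CCACNCCC, which contains no complete CACCC unless N is A or C, was found on either strand in 1 window each of KLF6, KLF7 and KLF13 and in 15.7% of all windows. The GC box GGGCGG occurs in 6 of the 16 windows, from KLF4, KLF5, KLF6, KLF7, KLF12 and KLF13, and in 42.6% of all windows. The GLIS core TGGGGGGT occurs in 1 window, of KLF7, and in 1.33% of all windows. The windows of GLIS3 and KLF9 hold none of these 4 letter strings, which says nothing of whether a factor binds there, and which start the HCT116 cells use was not measured.

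**Figure D1:**
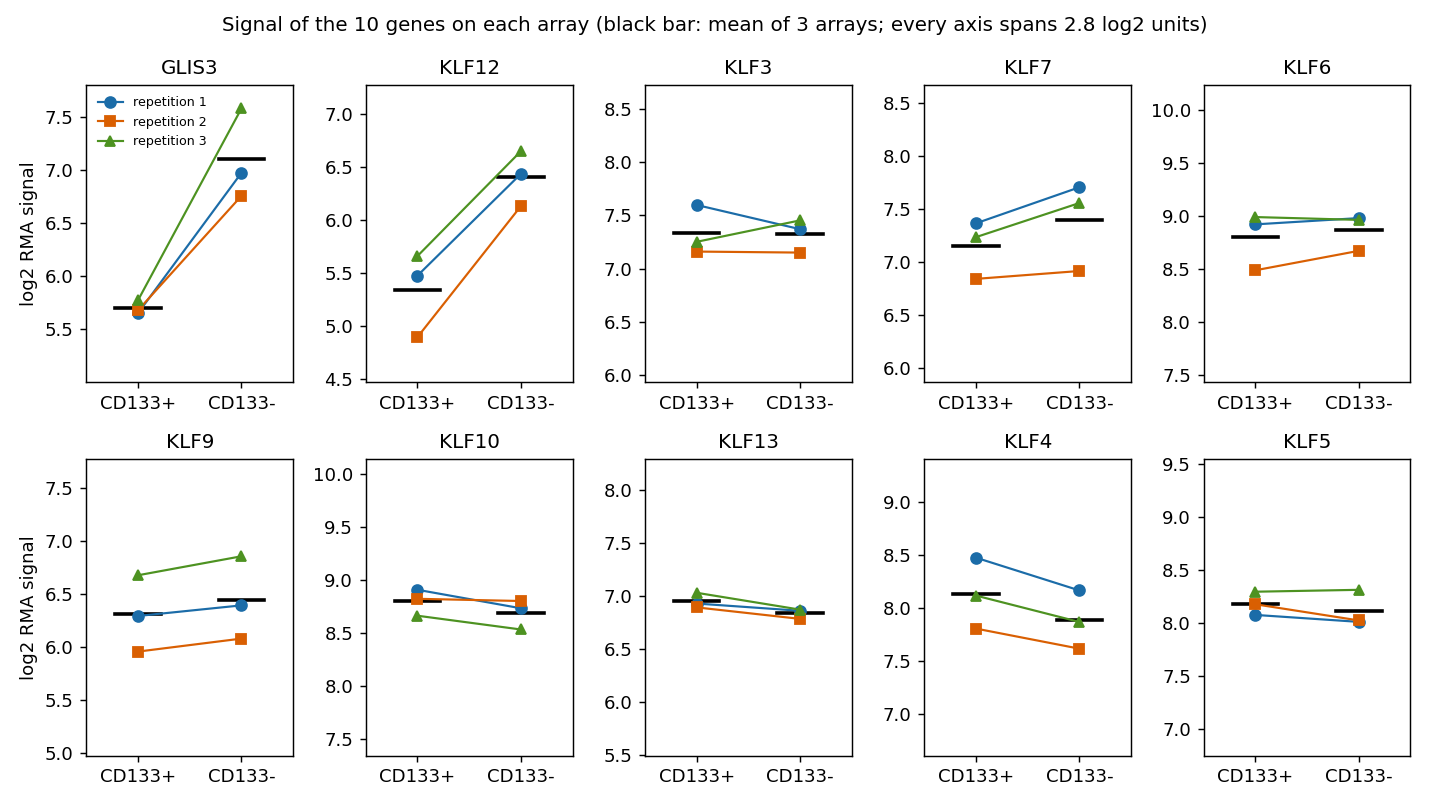
Log2 RMA signal (vertical axis, 2.8 log2 units in each panel) of the 10 genes on the 3 CD133+ and 3 CD133- arrays, joined within a repetition, with black bars at the mean of 3 arrays. GLIS3 and KLF12 lie lower on every CD133+ array than on any CD133- array, and in the other panels the fractions overlap, except KLF13, where they are 0.021 apart.

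KLF3, like KLF12 a repressor that recruits the corepressor CtBP, showed no common direction. Its log2 signals were 7.60, 7.16 and 7.25 on the CD133+ arrays and 7.37, 7.15 and 7.45 on the CD133- arrays. The difference was 0.23 in repetition 1, 0.0096 in repetition 2 and -0.20 in repetition 3, with a mean of 0.012 ± 0.22 (SD of 3 differences). The fractions overlapped, although the highest CD133+ value lay above every CD133- value.

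KLF7, best known from neurons and adipocytes, was lower in CD133+ cells in 3 of 3 repetitions, although its fractions overlapped. It had 7.36, 6.84 and 7.23 on the CD133+ arrays and 7.70, 6.91 and 7.55 on the CD133- arrays. Its differences were -0.34, -0.07 and -0.32, with a mean of -0.25 ± 0.15, which moved to -0.09 without CD133- repetition 1 or without CD133+ repetition 2 and to -0.48 without CD133- repetition 2. These settings unbalance the repetitions, and with both arrays of a repetition left out KLF7 differed by -0.33 to -0.20. KLF6, its closest relative and a growth-suppressive factor in several tumours, had 8.92, 8.49 and 8.99 in CD133+ and 8.98, 8.67 and 8.96 in CD133- cells, and its mean difference of -0.07 ± 0.11 was smaller than its SD. In both genes the arrays of repetition 2 were the lowest of their fraction.

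KLF9, KLF10 and KLF13 recruit the SIN3 corepressor. KLF9, a gene induced by glucocorticoid and thyroid hormone, had 6.29, 5.96 and 6.68 in CD133+ and 6.39, 6.08 and 6.86 in CD133- cells. It was lower in CD133+ cells in 3 of 3 repetitions by -0.10, -0.12 and -0.18, a mean of -0.13 ± 0.041 that is small beside the spread between repetitions and turned to 0.04 without CD133+ repetition 2 and to 0.073 without CD133- repetition 3. Both settings unbalance the repetitions, and with both arrays of a repetition left out the KLF9 difference was -0.15 to -0.11. KLF10, an early gene of TGF-beta signalling, had 8.91, 8.82 and 8.66 in CD133+ and 8.73, 8.80 and 8.53 in CD133- cells. It was higher in CD133+ cells in 3 of 3 repetitions, by a mean of 0.11 ± 0.079, with only 0.021 in repetition 2.

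KLF13, a regulator of the chemokine gene CCL5 in T cells, had 6.93, 6.89 and 7.03 on the CD133+ arrays and 6.86, 6.78 and 6.87 on the CD133- arrays. Its fractions did not overlap, but the gap was 0.021 and the mean difference 0.11 ± 0.045. KLF13 was the 1 gene of the 10 with a second probe set, which gave 4.38 ± 0.16 in CD133+ and 4.41 ± 0.12 in CD133- cells and a mean difference of -0.03, so its probe sets disagreed in sign. That second probe set had a mean below the median of all probe sets, whereas the 10 probe sets used had means above it, KLF12 only through its CD133- arrays.

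KLF4, one of the pluripotency reprogramming factors and a brake on epithelial proliferation, was higher in CD133+ cells in 3 of 3 repetitions. Its log2 signals were 8.47, 7.80 and 8.11 on the CD133+ arrays and 8.16, 7.61 and 7.86 on the CD133- arrays. The differences of 0.31, 0.19 and 0.25 had a mean of 0.25 ± 0.060, while the fractions overlapped because repetition 1 was high and repetition 2 low in both. The mean difference moved to 0.078 without CD133+ repetition 1, 0.12 without CD133- repetition 2, 0.39 without CD133- repetition 1 and 0.41 without CD133+ repetition 2. Leaving out a single array unbalances the repetitions, and with both arrays of a repetition left out the KLF4 difference was 0.22 to 0.28. KLF5 had 8.08, 8.18 and 8.29 in CD133+ and 8.01, 8.02 and 8.31 in CD133- cells, and its mean difference of 0.07 ± 0.085 was within its SD.

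**Figure D2:**
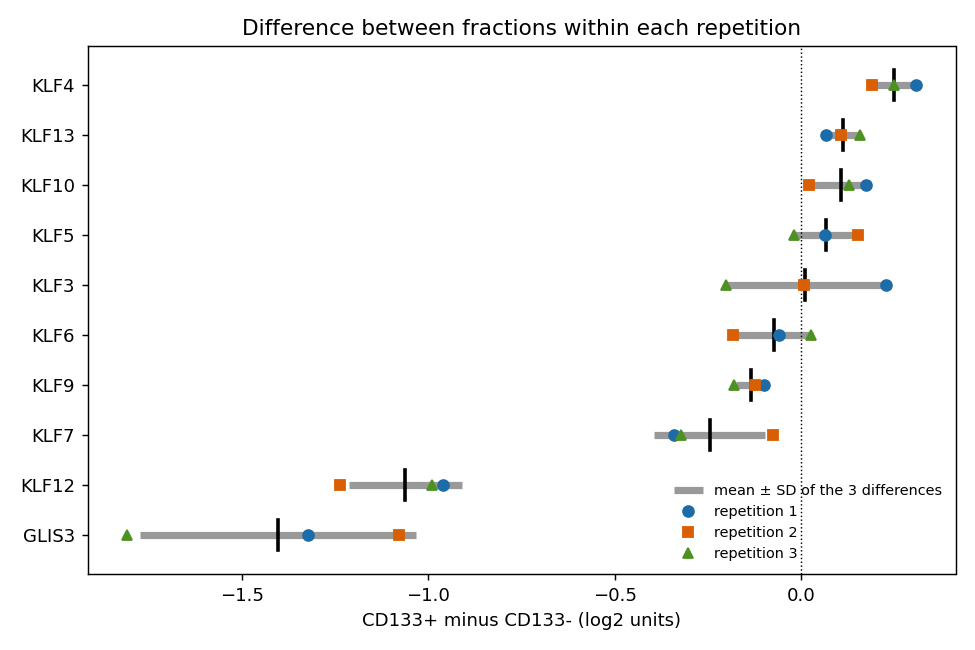
CD133+ minus CD133- in log2 units (horizontal axis) for each gene, with 1 point per repetition, a black bar at the mean and a grey bar of 1 SD to either side. GLIS3 (mean -1.40) and KLF12 (mean -1.06) stand apart from the other 8 genes, whose means run from -0.25 for KLF7 to 0.25 for KLF4.

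The sign was shared by all repetitions in 7 of the 10 genes, against 36.1% of all genes. By direction, 4 of the 10 genes were lower in CD133+ cells in 3 of 3 repetitions (GLIS3, KLF12, KLF7 and KLF9), against 18.4% of all genes, and 3 were higher in 3 of 3 (KLF4, KLF10 and KLF13), against 17.7%. The fractions did not overlap in 3 of the 10 genes, against 7.95% of all genes, namely in 2 genes that were lower, against 4.52% of all genes, and in 1 that was higher, against 3.43%. With limma and the repetition number as a block, 2 of the 10 genes were among the 0.131% of probe sets called lower, and 0 among the 0.166% called higher. With fraction as the only term, 0 of the 10 were called, against 0.00354% of all probe sets. Since the genes were listed with this contrast known, nothing is read from these counts.

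The means of the repetitions, which had no part in the choice of the genes, offered a contrast that could be tested. In a limma F test for differences between the 3 repetitions, with fraction as the other term, 4 of the 10 genes passed at an adjusted p under 0.05, against 13.0% of all probe sets and 15.3% of genes. These were KLF9 (adjusted p = 0.0197), KLF4 (0.0297), KLF7 (0.0298) and KLF12 (0.0338). KLF6 (adjusted p = 0.0707) and GLIS3 (0.194) missed the threshold, as did KLF5 (0.204), KLF3 (0.222), KLF10 (0.238) and KLF13 (0.664). All 10 genes had means above the median of all probe set means, where calls were more common. When only probe sets above that median were tested, 6791 of 14115 passed, beside 5 of the 10 genes, so no excess is read from the 4 calls. Averaged over both fractions, KLF9 was 6.34, 6.02 and 6.77 in repetitions 1, 2 and 3, KLF7 was 7.53, 6.88 and 7.39, KLF12 was 5.96, 5.51 and 6.15, and KLF4 was 8.32, 7.71 and 7.99. Repetition 2 gave the lowest mean in 8 of the 10 genes, KLF5 and KLF10 being the exceptions, and in 42.1% of all genes. Array medians were also lowest in repetition 2 (5.46 in CD133+ and 5.44 in CD133- cells, against 5.51 and 5.55 in repetition 1 and 5.60 and 5.59 in repetition 3). With each array centred on its median, repetition 2 was lowest in 7 of the 10 genes, against 25.5% of all genes. KLF13, whose repetition means spanned 0.11, was no longer among them. The shares of all genes include dim genes and were not counted above the median alone, so no excess is read here either. After that centring KLF9 (adjusted p = 0.0236), KLF7 (0.0326) and KLF4 (0.0342) still passed the limma F test, and KLF12 missed it (0.0647). After repeated quantile normalization KLF12 again missed it (0.0585), whereas KLF6 passed (0.0369).

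The spread between repetitions exceeded the difference between fractions in 8 of the 10 genes. That count was not made over all genes, and it sets a range of 3 means against a difference of 2, so nothing is read from it. For KLF9 the repetition means spanned 0.75 log2 units beside a difference between fractions of -0.13, and for KLF4 they spanned 0.61 beside 0.25. In GLIS3 the fractions differed more, with a span of 0.46 between repetitions beside a difference of -1.40, and likewise in KLF12 with 0.64 beside -1.06. All 4 calls of the repetition test ended when repetition 2 or repetition 3 was left out, and when a leading block of unannotated probe sets was included (lowest adjusted p of the 4 genes 0.0548).

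**Figure D3:**
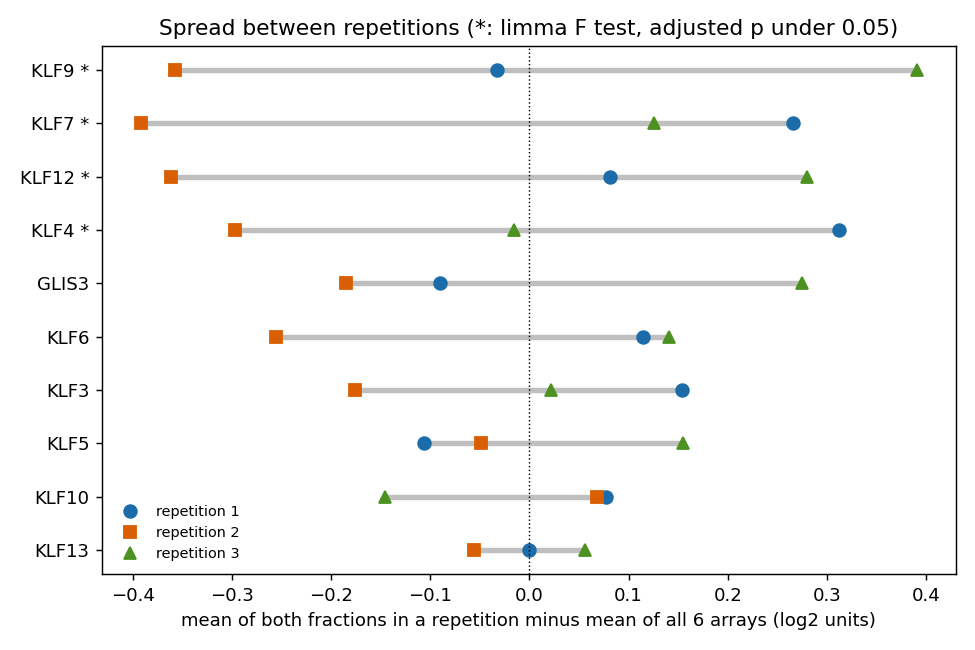
Mean of both fractions in each repetition minus the gene's mean over 6 arrays, in log2 units (horizontal axis), for the 10 genes, with stars on the 4 genes that passed the limma F test. Repetition 2 (squares) is lowest in 8 genes, or in 7 once arrays are centred on their medians, and KLF9 has the widest span, 0.75.

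Among themselves the genes differed in their profiles. Likeness was measured as the root-mean-square distance between 2 genes over the 6 arrays after each had been centred on its own mean. Profiles were not scaled, so the size of the step between fractions enters the distance. KLF12 was nearest to GLIS3 (distance 0.30 log2 units) and at least 0.45 from every other member, and GLIS3 was at least 0.64 from every member but KLF12. These distances include the differences on which both genes were chosen, so they are no separate result. KLF5 and KLF13, both nearly flat, were closest of all pairs at 0.099, and KLF3 and KLF6 followed at 0.15.

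Over all 18404 genes, the profiles nearest to KLF12 were those of FN1, encoding the matrix protein fibronectin, at a distance of 0.084, NEBL, encoding an actin-binding protein (0.16), the glucose transporter gene SLC2A1 (0.17), the calpain-family gene CAPN6 (0.20) and RNF43, encoding a ubiquitin ligase for Wnt receptors (0.22). FN1 had log2 signals of 5.53, 5.16 and 5.77 in CD133+ and 6.43, 6.17 and 6.74 in CD133- cells, so that it shared with KLF12 both the step between fractions and the low values of repetition 2. The profiles nearest to GLIS3 were those of the imprinted gene PEG10 (0.16), the microtubule-binding protein gene MAP1B (0.17), SEMA3C, encoding a secreted semaphorin (0.19), CD24, encoding a surface sialoglycoprotein (0.24), and the matricellular gene CCN1 (0.27). CD24 is uncertain because near-identical copies share its sequence. PEG10 had 6.83, 6.60 and 7.01 in CD133+ and 8.05, 8.22 and 8.79 in CD133- cells, with its highest value in CD133- cells of repetition 3, as in GLIS3. With 6 arrays, such likeness describes these values only, and it includes the step between fractions.

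**Figure D4:**
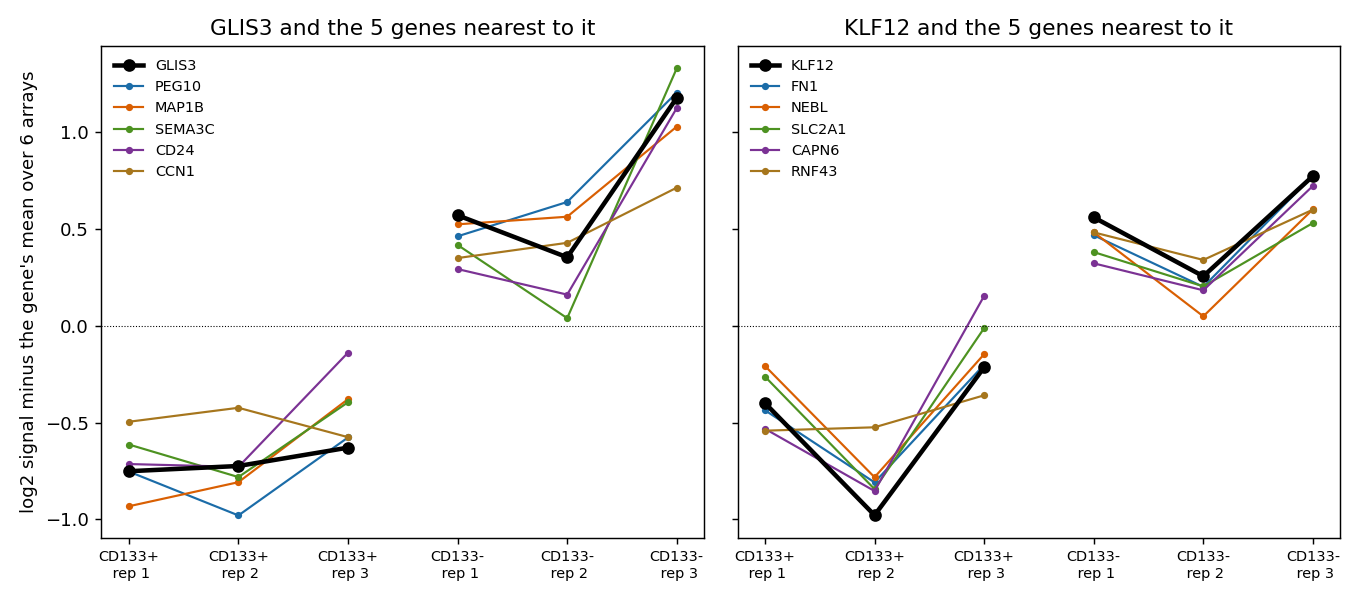
Log2 signal minus the gene's mean over 6 arrays (vertical axis) on the 3 CD133+ and 3 CD133- arrays (horizontal axis) for GLIS3 and KLF12 (black) and the 5 genes nearest to each; lines only guide the eye within a fraction. FN1 follows KLF12 at a distance of 0.084 and PEG10 follows GLIS3 at 0.16.

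The remaining KLF genes and the related SP genes, which bind similar GC-rich sequences, gave 0 calls in limma with either fit. Of 16 measured genes 14 lay below 0 and 2 above, with a median of -0.05. At an unadjusted p under 0.05 there was 1 of 16 genes with fraction as the only term (3.45% of all probe sets). With the repetition block there were 2 of 16 (11.3%). KLF17, known from germ cells and embryos, had 5.30 in CD133+ and 4.98 in CD133- cells and a difference of 0.32 (adjusted p = 1.00, and 0.399 with the block). Both means lay below 5.53, the median of all probe set means. KLF11, the closest relative of KLF10, had 6.62 in CD133+ and 6.95 in CD133- cells and a difference of -0.33 that was lower in 3 of 3 repetitions (adjusted p = 1.00, and 0.204 with the block), opposite in sign to KLF10 at 0.11. KLF8, which shares the CtBP-binding repressor type with KLF3 and KLF12, had 3.999 in CD133+ and 4.05 in CD133- cells, both below that median.

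The other GLIS genes and the GLI and ZIC genes, with the GLI inhibitor SUFU, ranged from -0.16 for GLIS2 to 0.15 for GLI3, with 6 of 10 below 0, a median of -0.04 and 0 calls with either limma fit, also at an unadjusted p under 0.05. GLIS1 and GLIS2, the nearest relatives of GLIS3, had differences of -0.03 and -0.16. GLI1, a target and effector of Hedgehog signalling, had 5.04 in CD133+ and 5.17 in CD133- cells (difference -0.13), and GLI2 had 5.68 and 5.82 (-0.14). Both GLI1 means lay below the median of all probe set means.

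Cofactors of KLF proteins differed little. The 16 genes were those for CtBP and SIN3 corepressors, histone deacetylases and acetyltransferases, with RCOR1, KDM1A and FHL3. Of the 16 genes 10 lay below 0, with a median of -0.05 and a range of -0.12 for SIN3A to 0.16 for SAP30. There were 0 calls with either fit, also at an unadjusted p under 0.05. CTBP2, encoding a corepressor bound by KLF3 and KLF12, had 9.17 in CD133+ and 9.28 in CD133- cells, and the acetyltransferase gene KAT2A had 8.06 and 7.92.

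Among 10 measured genes that act on KLF protein turnover, 4 lay below 0, with a median of 0.015 and 0 limma calls with either fit. At an unadjusted p under 0.05 there were 1 and 2 of the 10 genes without and with the block, against 3.45% and 11.3% of all probe sets. SMURF2, encoding a ubiquitin ligase that acts on TGF-beta signalling and on KLF5, had 9.98 in CD133+ and 10.29 in CD133- cells, a difference of -0.30 (adjusted p = 1.00, and 0.277 with the block). WWP2, encoding a related ligase, had 6.97 in CD133+ and 6.70 in CD133- cells, a difference of 0.27 (1.00 and 0.331).

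Genes described as KLF or GLIS3 targets in other systems split evenly, with 14 of 32 below 0, a median of 0.0068 and 0 limma calls with either fit. At an unadjusted p under 0.05 there were 3 of 32 genes with fraction as the only term, against 3.45% of all probe sets. With the block there were 9 of 32, against 11.3%. Both were larger shares than those of all probe sets. The list was chosen with earlier results of these data known, so nothing is read from these counts. PPARG, the adipogenic nuclear receptor gene downstream of KLF5 in mouse adipocytes, had 6.44 in CD133+ and 6.11 in CD133- cells, a difference of 0.33 (adjusted p = 1.00, and 0.209 with the block). THRB, a thyroid hormone receptor gene, had 4.55 in CD133+ and 4.20 in CD133- cells, a difference of 0.35 (1.00 and 0.176). Both THRB means lay below the median of all probe set means. TFAP2A, the gene at which KLF12 was described as a repressor, had 6.55 in CD133+ and 6.33 in CD133- cells, with differences of 0.33, 0.50 and -0.15 within repetitions 1, 2 and 3, so that its direction was not shared. CCND2, a cyclin gene activated by GLIS3 in mouse beta cells, had 4.44 in CD133+ and 4.53 in CD133- cells, both below that median. The ends of the list, named after their values were seen, were SMAD7, a TGF-beta inhibitor gene repressed by KLF10, at -0.45 (block adjusted p = 0.134) and the urokinase gene PLAU, a KLF6 target, at 0.41 (0.161). TFAP2A and CCND2 were likewise named after their values were seen.

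**Figure D5:**
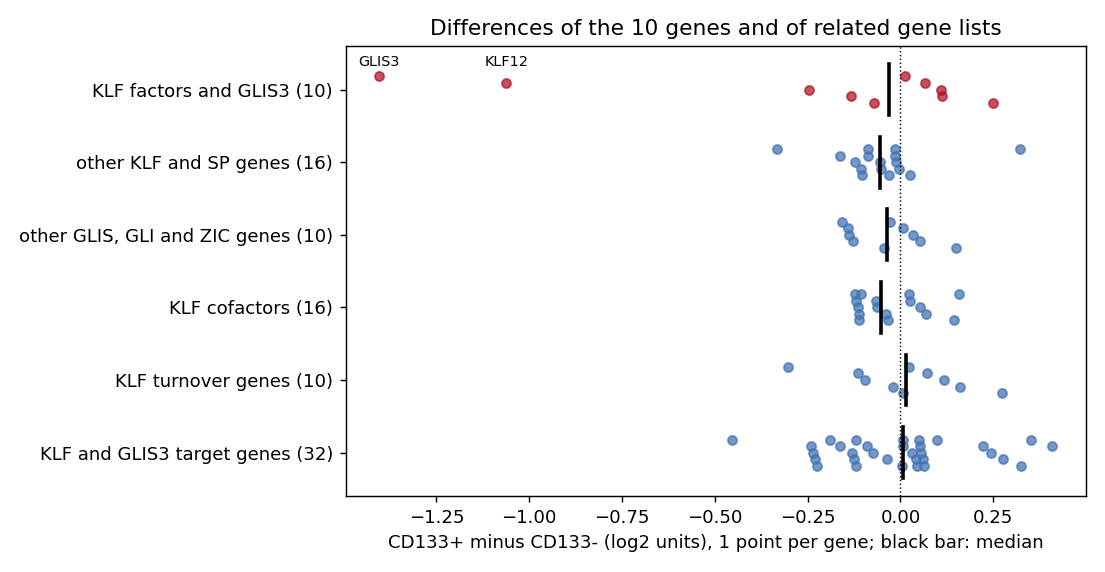
CD133+ minus CD133- in log2 units (horizontal axis), 1 point per gene, for the 10 genes (top row) and 5 related lists with the number measured in brackets; black bars mark medians. GLIS3 and KLF12 lie beyond every gene of the 5 lists, whose lowest and highest values are -0.45 for SMAD7 and 0.41 for PLAU.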

How the data were processed

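The deposited values were signals on a log2 scale that the authors made with Robust Multichip Average (RMA), per the labels' design text and the submitters' processing notes, which give no version. The scale was inferred from values between 1.09 and 13.7. A U133 array is named in the design text, whereas identifiers and annotation belong to the Human Gene ST platform. Of 32321 probe sets, a leading block of 4091 without annotation was left out. The other 28230 were tested, of which 19158 had 1 gene symbol, 1388 several and 7684 none. No filter on low values was applied, and having 3 arrays per fraction limits the precision.

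Differences are CD133+ minus CD133-. Linear models were fitted with limma (version 3.58.1, R 4.3.3), Benjamini-Hochberg adjustment covered all 28230 probe sets, and the fits were tested on simulated data. Same-numbered arrays deviated together (correlations 0.447 to 0.616 across probe sets, all over the bound of 0.1), and 6 of 6 arrays correlated best with their own number, so p-values from a fit blocked on repetition stand beside those without. This pairing comes from the data, not the labels. The 10 genes and all lists were chosen with earlier results of these data known. Named genes are the 10 genes, PROM1, the calls of each list or else its 2 smallest unadjusted p-values, the 5 nearest profiles, and others stated as chosen afterwards. KLF8, GLIS1 and GLIS2 were added as nearest relatives, and genes at the ends of a range and markers as examples. Some listed genes were not analysed here. Sequences are from RefSeq.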

Additional observations from a re-analysis of the deposited data

How the results depend on the processing

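The differences of GLIS3 and KLF12 stayed below 0 under all 11 alternatives run for each (repeated quantile normalization, centring on array medians, and each array or repetition left out), at -1.58 to -1.16 and -1.22 to -0.84. No probe set with several symbols held a member, so that alternative gave no value. KLF9 turned to 0.04 without CD133+ repetition 2 and to 0.073 without CD133- repetition 3, settings that unbalance the repetitions, and stayed below 0 in the other 9 (lowest -0.32). KLF6 also changed sign, to 0.084 without CD133+ repetition 2. KLF3 fell below 0 in 4 of its 11 alternatives, among them repeated quantile normalization (-0.011). KLF13, the 1 gene with several probe sets, turned to -0.035 on its second. The median of the 10 genes was -0.12 to 0.077 with single arrays or repetitions left out. Over all probe sets, the CD133 contrast gave 1 call in limma (974 at an unadjusted p under 0.05) and 84 with the repetition block (3202). It gave 0 after repeated quantile normalization (1102) or centring (906), 0 with the leading block of probe sets kept in (1036), 0 to 2 without single arrays (721 to 1571), and in the blocked fit 43 without repetition 1, 18 without repetition 2 and 0 without repetition 3 (2276). The 5 related lists had 0 calls under all their alternatives, the block included. The repetition test gave 3680 calls, 6791 when only the 14115 brighter probe sets were tested, 6048 with an intensity trend, 69 with the leading block kept in, and 313 to 4371 without a repetition. The members called were 4 as reported, 0 with the leading block kept in, 0 to 3 without a repetition and 3 to 5 under the other alternatives, KLF12 missing after centring and after repeated quantile normalization. The leading block and the blocked fits without a repetition were added after the data were seen. The cause of these changes was not tested. With 3 arrays per fraction, small differences such as those of KLF5, KLF6 and KLF3 cannot be told from the spread.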
